A study of Homo sapiens with 8 samples.

Results

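The genes described are 10 components of transforming growth factor beta (TGF-beta) signaling: the ligands TGFB1, TGFB2 and TGFB3, the receptors TGFBR1, TGFBR2 and TGFBR3, and the intracellular mediators SMAD2, SMAD3, SMAD4 and SMAD7. They were chosen by name for their place in the pathway, with earlier results of these data known. All 10 were found among the 25369 genes of the count and FPKM tables. RNA-seq was performed on LX-2, an immortalized human hepatic stellate cell line of wild type genotype, grown in serum-containing medium on fibronectin-coated polyacrylamide hydrogels. A soft matrix (2 kPa) and a stiff matrix (40 kPa) were each sampled after 2 days and after 4 days. Each of the 4 conditions had 2 libraries, which makes 8. All libraries come from this single line in monoculture, so the other cells of the liver that make or receive TGF-beta in tissue have no place in the model.

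TGF-beta ligands are secreted in a latent form, held in the matrix by binding proteins, and must be activated before they reach receptors. An active ligand binds the type II receptor TGFBR2, which recruits and phosphorylates the type I receptor TGFBR1, while TGFBR3 (betaglycan) presents ligand, TGFB2 above all. TGFBR1 then phosphorylates SMAD2 and SMAD3, which enter the nucleus with SMAD4, and SMAD7 is a feedback inhibitor that blocks and degrades the activated receptor. In the liver the pathway is known for driving stellate cells toward collagen-producing myofibroblasts.

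Libraries held between 19955975 and 27263935 counts (median 22598474), and 14570 genes passed the filter on low counts, all 10 pathway components among them. Replicates on the stiff matrix at day 4 stood apart from each other: the SD of the log2 ratio between replicates was 0.752 there, against 0.28 to 0.423 in the other conditions. In that pair the log2 ratio of replicate 2 to replicate 1 fell with gene length across genes (Spearman rho = -0.558 over 14570 genes, which are not independent replicates). The same rho was 0.471 for the soft day 4 pair, 0.190 for soft day 2 and -0.0385 for stiff day 2. Log2 fold changes of stiff against soft matrix also followed gene length, with rho of 0.244 at day 2 and -0.283 at day 4. For day 4 against day 2, rho was 0.0417 on soft and -0.151 on stiff matrix. Of the 8 stellate cell markers, VIM, SPARC, PDGFRB and COL3A1 were readily detected, PDGFRA had 2 to 23 counts, and DES and LRAT had at most 2 counts in any library. The study's methods describe the sequencing replicates as biological and its legends as independent experiments, while the labels do not say which culture each library came from. The p-values of the main fit draw on the spread between such libraries of 1 cell line. That spread was estimated over all 4 conditions together, the stiff day 4 pair included.

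Between day 2 and day 4 TGFB2 rose and SMAD7 fell on both matrices, and the 250 bases before their annotated starts are shown to let the promoters of these oppositely moving genes be compared. The sequences are those of the RefSeq promoter table (GRCh38.p14), placed on GRCh37 (hg19) by an exact match found once on each chromosome. TGFB2 lies on chromosome 1 from 218518678 to 218617961 on the plus strand, and its window, chr1:218518428-218518677 (plus strand), also covers exons of the antisense non-coding TGFB2-AS1. SMAD7 lies on chromosome 18 from 46446223 to 46477335 on the minus strand, and its window, chr18:46477336-46477585 (minus strand), covers no annotated exon. Capitals mark, from left to right, the shorter cAMP response element ACGTCA, the E-box CACGTG and the TATA box TATAAA.
TGFB2: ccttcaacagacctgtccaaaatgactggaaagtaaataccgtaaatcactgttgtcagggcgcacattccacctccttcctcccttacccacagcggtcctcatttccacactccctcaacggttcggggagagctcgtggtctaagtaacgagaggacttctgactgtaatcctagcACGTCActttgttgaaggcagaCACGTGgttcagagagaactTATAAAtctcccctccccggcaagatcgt
SMAD7: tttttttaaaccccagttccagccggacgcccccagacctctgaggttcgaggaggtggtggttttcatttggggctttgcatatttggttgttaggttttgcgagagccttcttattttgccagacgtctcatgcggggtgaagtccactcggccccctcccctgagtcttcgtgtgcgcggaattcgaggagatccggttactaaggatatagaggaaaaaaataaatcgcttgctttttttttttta

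In the TGFB2 window the ACGTCA match began 71 bases before the start, the CACGTG match 49 bases before it and the TATAAA match 29 bases before it. A CAGACA match (CAGA box, a SMAD-binding sequence) began at 53 bases and shares bases with the E-box. TGFB2 has 1 window in the RefSeq table and SMAD7 has 3, of which the one at the annotated start is shown and 1 of the others holds TATAAA. The SMAD7 window shown held none of the 8 motifs searched on both strands, which were these 4 together with TGANTCA (AP-1), TGACGTCA (the full cAMP response element, which contains ACGTCA), GTCTAGAC (the SMAD palindrome) and GGGCGG (GC box). Among 35116 promoter windows of the same length, 7.1% held ACGTCA, 6.34% CACGTG, 10.7% TATAAA and 13.6% CAGACA. A match describes letters in a window and not a bound site.

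Levels between genes were compared by FPKM, the deposited value per kilobase of gene. TGFB1, the classical profibrotic ligand, was the highest of the 10 genes in each condition, with mean FPKM of 57.8 ± 9.04 on soft and 58.6 ± 0.762 on stiff matrix at day 2, and 57.4 ± 4.75 and 50.7 ± 9.1 at day 4 (SD, n = 2). SMAD3 was second in each condition, at 23.8 to 35.4 FPKM, and TGFB3 was last, at 0.199 to 0.407 FPKM, with 13 to 31 counts per library. TGFB1 exons overlap those of HNRNPUL1 on the opposite strand. TGFB2 exons overlap those of TGFB2-AS1 on the opposite strand and of TGFB2-OT1 on the same strand. Exons of TGFB3 and SMAD3 overlap other annotated exons on the opposite strand, and those of SMAD4 on the same strand. Of these overlapping genes only HNRNPUL1 is in the count table. Since the strand setting of the counting is not given in the sources used here, reads of the overlapping parts cannot be told apart.

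The middle of the order shifted with time. On soft matrix at day 2 the order below SMAD3 was TGFBR2, SMAD7, TGFBR1, SMAD4, SMAD2, TGFB2 and TGFBR3, and the replicate ranges of SMAD7 and TGFBR1, and of SMAD4 and SMAD2, overlapped. On soft matrix at day 4 the order was TGFBR1, TGFBR2, SMAD2, SMAD4, SMAD7, TGFB2 and TGFBR3, and no neighbors overlapped. On stiff matrix at day 4 TGFB2 stood above SMAD7 (9.84 ± 1.4 against 5.95 ± 0.477 FPKM, SD, n = 2), whereas at day 2 on the same matrix SMAD7 stood above TGFB2 (17.2 ± 0.902 against 2.12 ± 0.423 FPKM, SD, n = 2). Neighbors whose ranges overlapped were SMAD2 with SMAD4 and TGFB2 with TGFBR3 on stiff matrix at day 2, and SMAD3 with TGFBR1, TGFBR1 with TGFBR2 and SMAD2 with SMAD4 on stiff matrix at day 4.

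**Figure D1:**
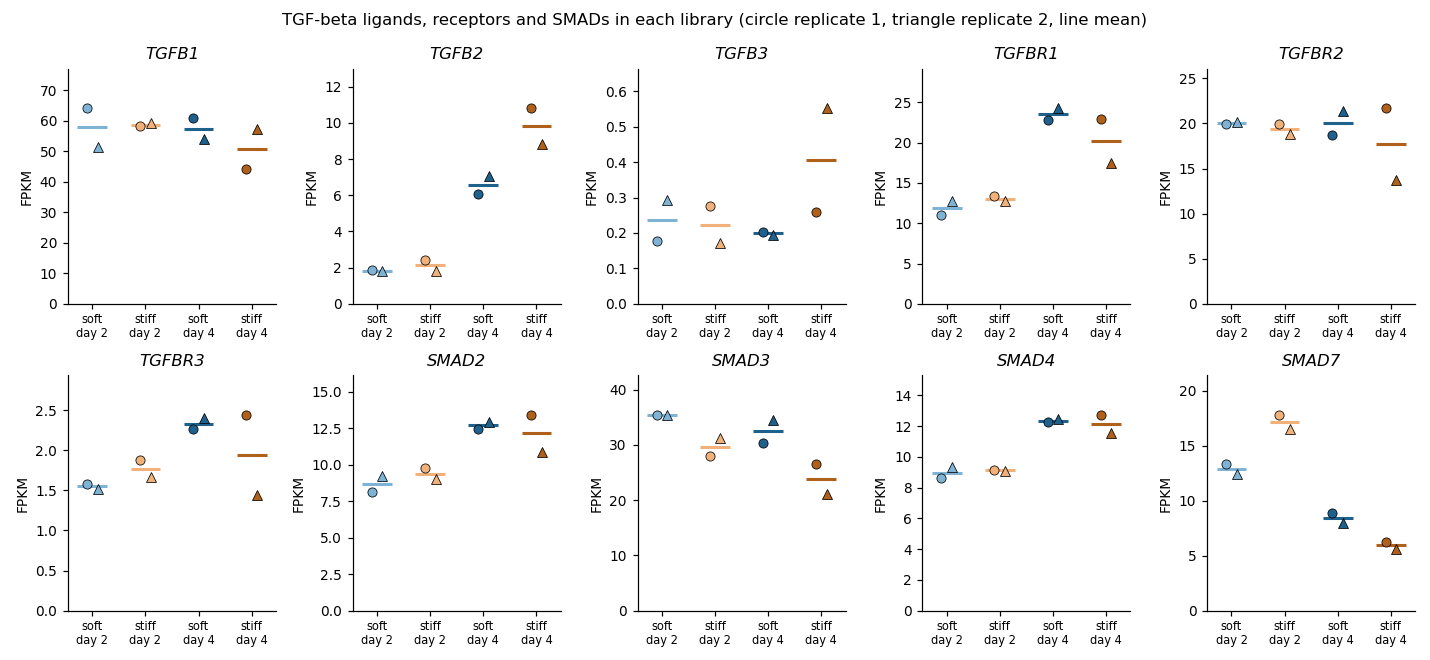
FPKM (y axis, starting at 0, scale set per gene) of the 10 genes in each library, by matrix and day (x axis); circles are replicate 1, triangles replicate 2 and lines the mean of the 2 libraries. TGFB2 and TGFBR1 are higher at day 4 than at day 2 on both matrices, SMAD7 is lower, and TGFBR2, TGFBR3 and TGFB3 show wide gaps between the replicates on stiff matrix at day 4.

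The comparison of day 4 with day 2 asks how the cells' own pathway components change over time in culture on each matrix. TGFB2 rose 3.64-fold on soft and 4.68-fold on stiff matrix, TGFBR1 rose 2.01-fold on soft and 1.57-fold on stiff matrix, SMAD4 rose by less than that on both, and SMAD7 fell on both. With quasi-likelihood tests in edgeR, adjusted by Benjamini-Hochberg over all 14570 genes, 5 of the 10 components passed at 0.05 on soft matrix (4 higher, 1 lower), where 27.4% of all genes tested did. On stiff matrix 4 of 10 passed (3 higher, 1 lower), where 27.6% of all genes did. TGFB2, TGFBR1, SMAD4 and SMAD7 passed in the same direction on both matrices, 4 of 10 against 20.7% of all genes. The libraries of the 2 days did not overlap for 7 of 10 components on soft matrix, against 75.3% of all genes, and for 7 of 10 on stiff matrix, against 62.7%. At an unadjusted p under 0.05, 6 of 10 components passed on soft matrix (41% of all genes) and 5 of 10 on stiff matrix (41.4%). Whether the components differ from these backgrounds was not tested. In bulk RNA, fewer cells of a type and less RNA per cell cannot be told apart.

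Among the ligands, TGFB2 showed the widest range of the 10 genes. TGFB2 is the isoform that depends most on betaglycan for receptor binding. Its TMM-normalized level was 11.1 and 10.7 CPM (counts scaled to library size) in the soft day 2 libraries, 14.4 and 10.8 in the stiff day 2 libraries, 36.2 and 43.1 in the soft day 4 libraries, and 65.0 and 53.4 in the stiff day 4 libraries. Each day 4 library was above each day 2 library. The log2 fold change was 1.86 (SE 0.192) on soft matrix, a 3.64-fold rise (adjusted p = 0.00164), and 2.23 (SE 0.194) on stiff matrix, a 4.68-fold rise (adjusted p = 0.00129). These differences ranked at the 99.1 and 99.3 percentiles of the log2 fold changes of all genes tested.

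TGFB1 did not pass the test over time on either matrix. It stood at 166 and 133 CPM on soft matrix at day 2 and at 158 and 142 CPM at day 4, so the groups overlapped. On stiff matrix it stood at 150 and 153 CPM at day 2 and at 115 and 149 CPM at day 4, a log2 difference of -0.20 (SE 0.174, adjusted p = 0.428 by the edgeR test). TGFB3, whose counts were the lowest of the 10 genes, had a log2 difference of -0.22 (SE 0.51) on soft and 0.86 (SE 0.49) on stiff matrix. Its stiff day 4 libraries held 17 and 31 counts and its stiff day 2 libraries 21 and 13, so the groups overlapped.

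The make-up of the ligand transcripts differed between the days. TGFB2 made up 2.81% and 3.35% of the summed FPKM of the 3 ligands on soft matrix at day 2, and 9.02% and 11.6% at day 4. On stiff matrix the share was 3.98% and 2.98% at day 2, and 19.6% and 13.3% at day 4. TGFB1 remained the main ligand transcript in each library, at 79.9% to 96.9%, and TGFB3 was at 0.266% to 0.832%. The stiff day 4 libraries had the 2 largest TGFB2 shares, while the stiff and soft libraries overlapped at day 2. The shares are of transcripts and say nothing of secreted or active protein.

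**Figure D2:**
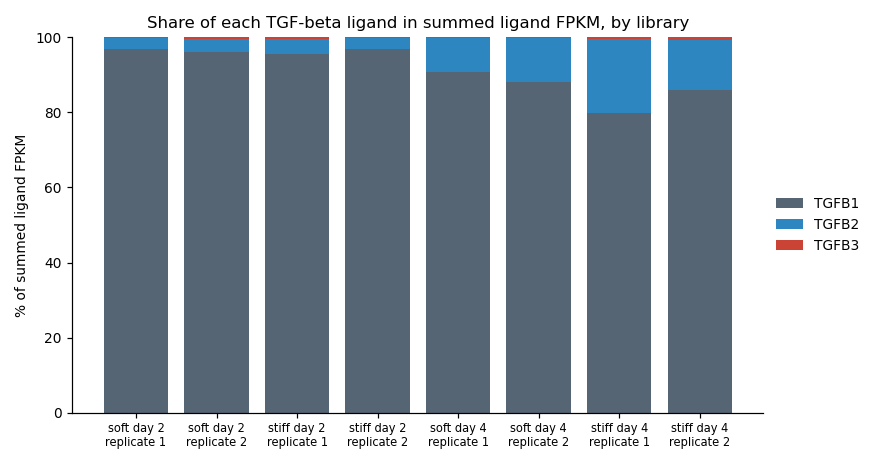
Share of TGFB1, TGFB2 and TGFB3 (stacked bars, % of the summed FPKM of the 3 ligands, y axis) in each of the 8 libraries (x axis). TGFB2 takes 2.81% to 3.98% in the day 2 libraries and 9.02% to 19.6% in the day 4 libraries.

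Among the receptors, TGFBR1, the type I receptor kinase, rose on both matrices. Its level was 71.3 and 82.6 CPM on soft and 86.5 and 82.3 CPM on stiff matrix at day 2. At day 4 it was 148 and 161 CPM on soft and 150 and 115 CPM on stiff matrix. No day 4 library fell within the day 2 range, and stiff replicate 2 was the lowest at day 4. The log2 fold change was 1.01 (SE 0.164, adjusted p = 0.00545) on soft and 0.65 (SE 0.164, adjusted p = 0.024) on stiff matrix by the edgeR test.

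TGFBR2, the type II receptor that first binds ligand, was 88.3 to 94.7 CPM in the 4 day 2 libraries and 65.5 to 103 CPM in the 4 day 4 libraries. The lowest value came from stiff replicate 2 and the other 3 day 4 libraries held 88.6 CPM or more. Its log2 differences were 0.02 (SE 0.208) on soft and -0.11 (SE 0.208) on stiff matrix, and neither passed the test. Within a library, the FPKM ratio of TGFBR1 to TGFBR2 was 0.552 to 0.677 at day 2 and 1.06 to 1.27 at day 4. TGFBR1 thus stood below TGFBR2 in each day 2 library and above it in each day 4 library.

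TGFBR3, which carries TGFB2 to the signaling receptors, stood at 10.8 and 10.3 CPM on soft matrix at day 2 and at 15.5 and 16.7 CPM at day 4. Its log2 difference of 0.61 (SE 0.235) did not pass the edgeR test (adjusted p = 0.091). A gene-length correction, added once the data had been seen, gave 0.62 (adjusted p = 0.00988 by edgeR). With that correction 42.2% of all genes passed on soft matrix, against 27.4% in the main fit. On stiff matrix the libraries were at 12.8 and 11.3 CPM at day 2 and at 16.7 and 9.96 CPM at day 4, so the groups overlapped.

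Of the SMADs that carry the signal, SMAD4, the common partner, rose on both matrices, a call that held in 2 of 8 fits without 1 library on each. It was 75.7 and 81.9 CPM on soft and 80.4 and 79.7 CPM on stiff matrix at day 2. At day 4 it was 108 and 112 CPM on soft and 113 and 103 CPM on stiff matrix, above each day 2 library. The log2 fold change was 0.48 (SE 0.123, adjusted p = 0.0252) on soft and 0.43 (SE 0.123, adjusted p = 0.0373) on stiff matrix by the edgeR test.

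SMAD2, a receptor-activated SMAD, rose on soft matrix, from 88.2 and 99.3 CPM to 135 and 142 CPM (log2 fold change 0.57, SE 0.147, adjusted p = 0.026 by edgeR). On stiff matrix it was 105 and 97.5 CPM at day 2 and 146 and 119 CPM at day 4. Those groups did not overlap, but the log2 difference of 0.39 (SE 0.146) missed the threshold (adjusted p = 0.0866 by edgeR). With the correction for gene length the stiff value was 0.72 with an adjusted p of 0.00196 by edgeR. In that setting 42.4% of all genes passed on stiff matrix, against 27.6% in the main fit. SMAD2 is the longest of the 10 genes, at 10775 bases, and the part of length in its difference was not tested.

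SMAD3, the other receptor-activated SMAD, had differences of the opposite sign that did not pass the test. It was 235 and 234 CPM on soft matrix at day 2 and 203 and 234 CPM at day 4 (log2 difference -0.11, SE 0.154). On stiff matrix it was 186 and 207 CPM at day 2 and 177 and 142 CPM at day 4 (log2 difference -0.30, SE 0.155, adjusted p = 0.183 by edgeR). The FPKM ratio of SMAD3 to SMAD2 was 2.87 to 4.34 in the day 2 libraries and 1.94 to 2.67 in the day 4 libraries. The day 2 and day 4 ranges of this ratio did not overlap.

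SMAD7, the inhibitory SMAD, fell on both matrices. On soft matrix it was 45.9 and 42.8 CPM at day 2 and 30.9 and 28 CPM at day 4, a 1.51-fold fall (log2 fold change -0.59, SE 0.136, adjusted p = 0.0171 by edgeR). On stiff matrix it was 61.5 and 56.9 CPM at day 2 and 21.8 and 19.6 CPM at day 4, a 2.86-fold fall (log2 fold change -1.52, SE 0.139, adjusted p = 0.00138 by edgeR). The 4 day 4 libraries were below the 4 day 2 libraries, and the stiff libraries held both the highest day 2 values and the lowest day 4 values.

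**Figure D3:**
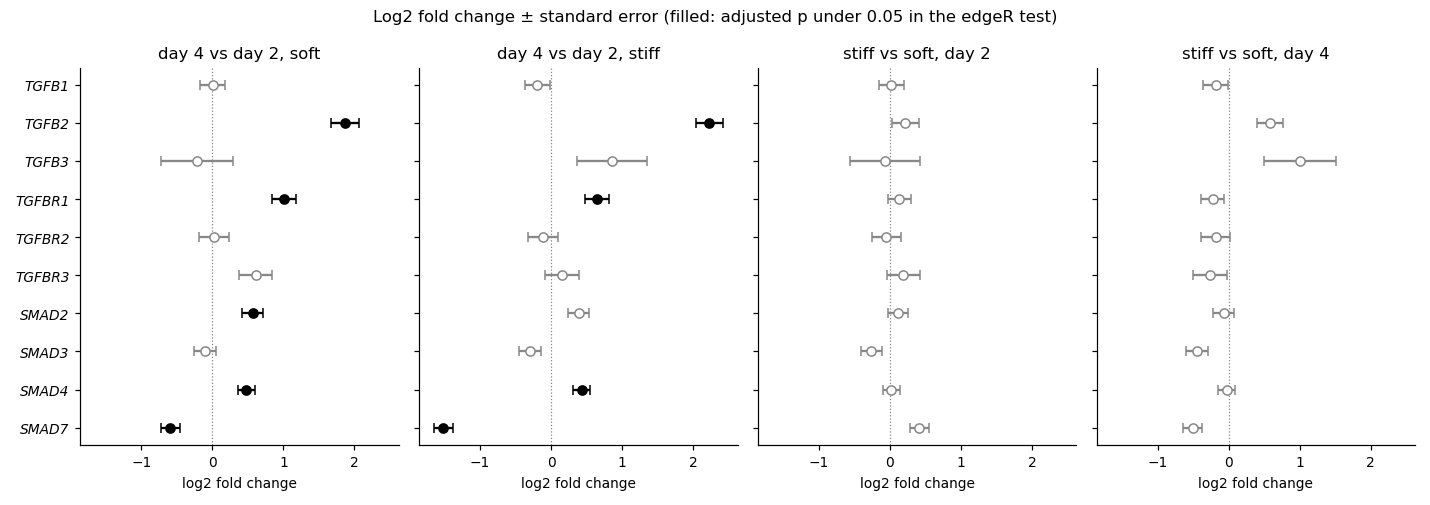
Log2 fold change (x axis) with its standard error (bars) for the 10 genes (y axis) in 4 comparisons; filled points are those called by edgeR at an adjusted p under 0.05. Filled points are TGFB2, TGFBR1, SMAD2, SMAD4 and SMAD7 over time on soft matrix and TGFB2, TGFBR1, SMAD4 and SMAD7 on stiff matrix, and both stiff against soft panels hold open points only.

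The number of components that passed moved when single libraries were left out. A left-out library leaves 1 in its group, which is then assumed to vary like the others. All 4 conditions share a common estimate of the spread, so libraries outside a comparison also enter its test. The share of all genes that passed moved in the same fits. On soft matrix 1 of 10 passed without soft day 2 replicate 1 (2.32% of all genes) and 2 without soft day 2 replicate 2 (7.83%), soft day 4 replicate 1 (6.76%) or soft day 4 replicate 2 (8.22%). Without either stiff day 2 library 3 passed (16.2% of all genes). TGFB2 passed each time. On stiff matrix 2 of 10, TGFB2 and SMAD7, passed without any 1 of the 4 day 2 libraries, where 16.4% and 16.5% of all genes passed without soft replicate 1 and 2, and 5.74% and 3.14% without stiff replicate 1 and 2. The SMAD4 calls on both matrices and the SMAD2 call on soft matrix were lost without any 1 of the 6 libraries other than the stiff day 4 pair. The SMAD7 call on soft matrix was lost without any 1 of the 4 soft libraries. The TGFBR1 call was lost on soft matrix without soft day 2 replicate 1 and on stiff matrix without any 1 of the 4 day 2 libraries. Leaving out either stiff day 4 library raised the stiff count to 7, with 52.1% of all genes passing without replicate 1 and 43.8% without replicate 2.

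The comparison of stiff with soft matrix asks whether stiffness alters these components at the same day. SMAD3 was lower in both stiff libraries at both days, TGFB2 was higher in both stiff libraries at day 4, and SMAD7 was higher at day 2 and lower at day 4. By edgeR 0 of 10 were called at day 2, where 0% of all genes were, and 0 of 10 at day 4, where 0.247% were (0.0343% higher, 0.213% lower). None passed for the mean of both days (0.426% of all genes, 0.0755% higher and 0.35% lower) or for the change of the stiffness effect between days (0%). At an unadjusted p under 0.05, 1 of 10 passed at day 2, 3 at day 4, 2 for the mean and 1 for the change, against 2.82%, 6.93%, 7.7% and 1.95% of all genes. DESeq2 and limma on log2 FPKM passed 0 of 10 in each of these comparisons. The stiff and soft libraries did not overlap for 4 of 10 components at day 2 (TGFBR2 and SMAD3 lower, TGFBR3 and SMAD7 higher), against 48.2% of all genes, and for 4 of 10 at day 4 (TGFB2 and TGFB3 higher, SMAD3 and SMAD7 lower), against 25.7%.

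The counts for stiffness at day 4 turned on the stiff day 4 replicates. Without replicate 1 of that group 7 of 10 components passed at day 4 (2 higher, 5 lower), and 31.1% of all genes passed in the same fit. Without replicate 2 only TGFB2 passed, with 3.63% of all genes. For the mean of both days 3 passed without replicate 1 (19.8% of all genes) and 1 without replicate 2 (6.83%). For the change between days 3 passed without replicate 1 (20.9%) and 0 without replicate 2 (0.0799%). Leaving out any of the other 6 libraries gave 0 of 10 in these comparisons.

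Among the ligands, TGFB2 was 36.2 and 43.1 CPM on soft and 65.0 and 53.4 CPM on stiff matrix at day 4, as given above. Both stiff libraries were higher, with a log2 difference of 0.58 (SE 0.184, adjusted p = 0.47 by edgeR). At day 2 the groups overlapped and the log2 difference was 0.22 (SE 0.191). TGFB1 groups overlapped at both days, with log2 differences of 0.02 at day 2 and -0.18 at day 4. TGFB3 had a log2 difference of 1.01 (SE 0.502) at day 4 from 14 and 14 counts on soft and 17 and 31 counts on stiff matrix, and it did not pass (adjusted p = 0.805 by edgeR).

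For the receptors, the log2 differences of stiff from soft matrix lay between -0.05 and 0.19 at day 2 and between -0.26 and -0.18 at day 4. At day 4 the groups overlapped for all 3 receptors, with stiff replicate 2 the lowest of the 4 libraries each time. TGFBR3, at -0.26 (SE 0.236) at day 4, was -0.68 without stiff replicate 1 (adjusted p = 0.00735 by edgeR) and 0.067 without stiff replicate 2.

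SMAD3 was 235 and 234 CPM on soft against 186 and 207 CPM on stiff matrix at day 2, and 203 and 234 CPM against 177 and 142 CPM at day 4. The stiff libraries were below the soft ones at both days. The log2 difference was -0.26 (SE 0.154) at day 2, -0.45 (SE 0.155, adjusted p = 0.529) at day 4 and -0.36 (SE 0.109, adjusted p = 0.384) for the mean of both days, by the edgeR test. Without stiff day 4 replicate 1 the last value was -0.44 (adjusted p = 0.00249 by edgeR), and without replicate 2 it was -0.28 (adjusted p = 0.0549). SMAD2 and SMAD4 overlapped between matrices at both days, with log2 differences of -0.07 to 0.11.

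SMAD7 was the single component whose 2 stiff libraries lay on opposite sides of the 2 soft libraries at the 2 days, a pattern held by 2.66% of all genes tested. At day 2 it was 45.9 and 42.8 CPM on soft and 61.5 and 56.9 CPM on stiff matrix, a log2 difference of 0.42 (SE 0.134, adjusted p = 1 by edgeR). At day 4 it was 30.9 and 28 CPM on soft and 21.8 and 19.6 CPM on stiff matrix, a log2 difference of -0.51 (SE 0.138, adjusted p = 0.353 by edgeR). The change between the days was -0.92 (SE 0.193) with an unadjusted p of 0.00143, and it did not pass over all genes (adjusted p = 1 by edgeR; DESeq2 gave an adjusted p of 0.271). Without stiff day 4 replicate 1 the change was -0.99 (adjusted p = 0.00296 by edgeR, with 20.9% of all genes passing), and without replicate 2 it was -0.83 (adjusted p = 0.15).

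**Figure D4:**
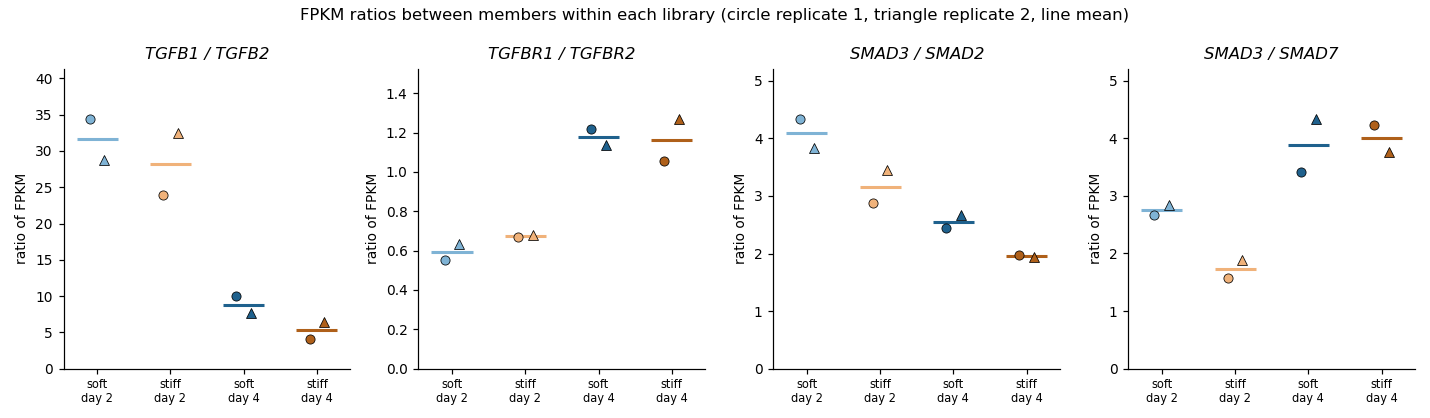
Ratio of FPKM between pairs of components within each library (y axis, starting at 0), by matrix and day (x axis); circles are replicate 1, triangles replicate 2 and lines the mean of the 2 libraries. The TGFB1 to TGFB2 ratio goes from 24.0 to 34.5 at day 2 to 4.08 to 10.05 at day 4, and the SMAD3 to SMAD7 ratio is lowest on stiff matrix at day 2 (1.57 and 1.89).

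The FPKM ratio of SMAD3 to its inhibitor SMAD7 was 2.67 and 2.84 on soft and 1.57 and 1.89 on stiff matrix at day 2. At day 4 it was 3.41 and 4.34 on soft and 4.22 and 3.76 on stiff matrix. Day 4 libraries were above day 2 libraries on each matrix, and the matrices overlapped at day 4.

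The pathway around these components was read from 5 lists of 69 genes, of which 65 passed the filter on low counts (ITGB6, POSTN, ELN and NOX4 did not). From day 2 to day 4, 11 of the 65 rose and 10 fell on soft matrix, and 8 rose and 17 fell on stiff matrix, against 14.1% and 13.3% of all genes rising and falling on soft and 14% and 13.7% on stiff matrix. The median log2 fold change of the 65 genes was 0.10 on soft and -0.06 on stiff matrix, against 0.02 and 0.03 over all genes tested. On soft matrix 1 to 5 of the 65 passed without any 1 of the 4 soft libraries (2.32% to 8.22% of all genes), 11 without either stiff day 2 library (16.2%), 44 without stiff day 4 replicate 1 (52.9%) and 43 without replicate 2 (52.7%). On stiff matrix 4 passed without stiff day 2 replicate 1 (5.74% of all genes), 3 without replicate 2 (3.14%), and 40 without either stiff day 4 library (52.1% and 43.8%).

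Of 13 genes tested from the ligand activation list, 2 rose and 4 fell on soft matrix and 1 rose and 5 fell on stiff matrix. LTBP2, LTBP3 and LTBP4, members by name of the latent TGF-beta binding protein family of fibrillin-related matrix proteins, fell on both matrices. LTBP4 went from 109 and 92.4 CPM to 49.9 and 49.1 CPM on soft and from 80.4 and 95.7 CPM to 45.2 and 33.2 CPM on stiff matrix (log2 fold changes -1.02 and -1.17, adjusted p = 0.0076 and 0.00524 by edgeR). LTBP1, another latent TGF-beta binding protein, did not pass, with log2 differences of 0.10 and -0.29.

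THBS1, thrombospondin 1, which can activate latent ligand, rose on soft matrix from 82.9 and 84.9 CPM to 170 and 206 CPM (log2 fold change 1.16, SE 0.253, adjusted p = 0.0144 by edgeR). On stiff matrix it was 136 and 109 CPM at day 2 and 250 and 146 CPM at day 4, a log2 difference of 0.70 that did not pass (adjusted p = 0.0747 by edgeR). The integrin subunit ITGB8 rose on soft matrix from 0.39 and 0.94 CPM to 1.63 and 3.07 CPM, and LRRC32, which anchors latent ligand at the cell surface, rose on stiff matrix from 0.63 and 0.88 CPM to 2.06 and 1.96 CPM. The integrin subunit ITGB5 fell on both matrices, and FURIN, the protease that cleaves the ligand precursors, fell on stiff matrix (log2 fold change -0.72, SE 0.15, adjusted p = 0.0126 by edgeR).

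Of 10 co-receptors and receptor-level regulators, 1 rose and 1 fell on soft matrix and 0 rose and 1 fell on stiff matrix. ENG (endoglin), a co-receptor, fell on both (log2 fold changes -0.67 and -0.71, adjusted p = 0.0135 and 0.0112 by edgeR). CD109, a co-receptor that restrains signaling, rose on soft matrix from 6.58 and 7.95 CPM to 12.3 and 14.7 CPM. Of the 4 other SMADs, SMAD6, the second inhibitory SMAD, fell on both matrices together with SMAD7 (log2 fold changes -0.79 and -1.10, adjusted p = 0.0163 and 0.00586 by edgeR). SMAD9, a SMAD of the bone morphogenetic protein (BMP) branch, fell on stiff matrix (log2 fold change -0.91).

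Of 15 inhibitors and turnover factors of SMADs, 4 rose and 1 fell on soft matrix and 2 rose and 2 fell on stiff matrix. The co-repressor TGIF2 rose on both matrices, from 16.8 and 17.2 CPM to 31.0 and 29.8 CPM on soft and from 15.2 and 15.8 CPM to 27.8 and 35.7 CPM on stiff matrix. The ubiquitin ligase NEDD4L rose on both (log2 fold changes 0.65 and 0.76), and the ubiquitin ligase STUB1 fell on both (-1.10 and -0.74). The SMAD phosphatase PPM1A and the co-repressor SKIL rose on soft matrix, and SMURF1, the ligase that acts with SMAD7 on receptors, fell on stiff matrix. PMEPA1, a feedback inhibitor, did not pass over time, with log2 differences of -0.41 and -0.76.

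Of 23 TGF-beta target genes tested, 4 rose and 3 fell on soft matrix and 5 rose and 7 fell on stiff matrix. The risers on both matrices were CTGF (a matricellular growth factor), IGFBP3, LOX (the collagen cross-linking enzyme) and ACTA2 (smooth muscle actin). CNN1, a smooth muscle actin-binding protein, rose on stiff matrix. IGFBP3 went from 17.1 and 15.9 CPM to 38.7 and 35.1 CPM on soft and from 18.1 and 15.3 CPM to 75.3 and 88.3 CPM on stiff matrix (log2 fold changes 1.16 and 2.29, adjusted p = 0.00315 and 0.000737 by edgeR). The transcriptional repressor BHLHE40, ID3 and SNAI2 fell on both matrices, and ID1, ID2, SNAI1 and CDKN1A fell on stiff matrix. The ID genes are targets mainly of the BMP branch.

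**Figure D5:**
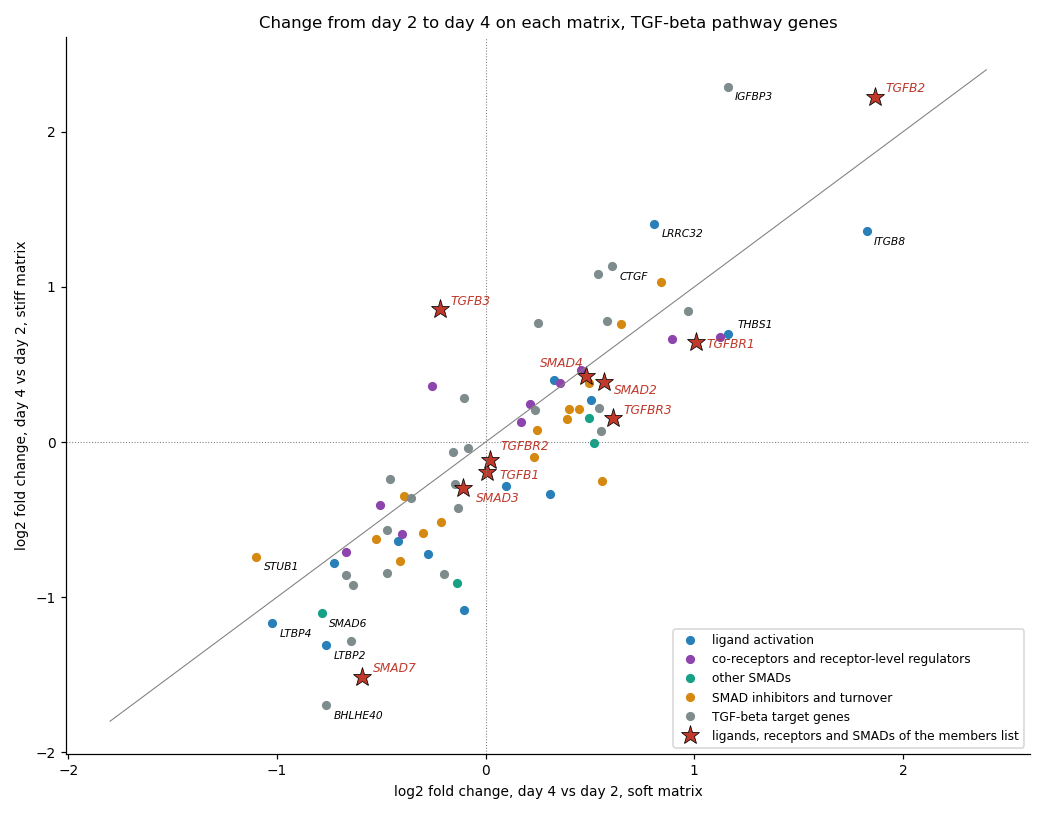
Log2 fold change from day 2 to day 4 on soft (x axis) and stiff matrix (y axis) for the 10 components (stars) and the 65 genes of the 5 pathway lists that were tested (dots, colored by list); the diagonal marks equal change on both matrices. TGFB2 lies at the upper right (1.86 and 2.23), and SMAD7 lies below the diagonal (-0.59 and -1.52) near BHLHE40, LTBP2 and SMAD6.

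Between stiff and soft matrix, 0 of the 65 pathway genes passed at day 2 by edgeR, where 0% of all genes did. At an unadjusted p under 0.05, 6 passed there (2.82% of all genes), and DESeq2 passed 0 (0.11%). At day 4, 2 passed by edgeR (0.247% of all genes), both of them TGF-beta target genes. IGFBP3 was 38.7 and 35.1 CPM on soft and 75.3 and 88.3 CPM on stiff matrix at day 4 (log2 fold change 1.15, SE 0.154, adjusted p = 0.0362 by edgeR). BHLHE40 was 61.7 and 68.4 CPM on soft and 31.9 and 26.2 CPM on stiff matrix (log2 fold change -1.16, SE 0.147, adjusted p = 0.0331 by edgeR). BHLHE40 was also the 1 gene that passed for the mean of both days, where 0.426% of all genes did. Neither gene passed at day 4 when any 1 of the 6 libraries other than the stiff day 4 pair was left out, and 0 of 65 passed for the mean. Without stiff day 4 replicate 1 there were 31 of 65 at day 4 (31.1% of all genes) and 28 for the mean (19.8%), and without replicate 2 there were 19 (3.63%) and 22 (6.83%). At day 2, 3 of 65 passed without either stiff day 4 library (0.792% and 0.813% of all genes).

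Other targets did not pass between matrices. CTGF was 228 and 217 CPM on soft and 410 and 410 CPM on stiff matrix at day 4 (log2 difference 0.88, SE 0.15, adjusted p = 0.0945 by edgeR). PMEPA1 was lower in both stiff libraries at both days, with log2 differences of -0.74 and -1.09, at levels of 1.13 to 3.78 CPM. SKIL was 28.6 and 32.9 CPM on soft and 22.8 and 17.8 CPM on stiff matrix at day 4 (log2 difference -0.60, adjusted p = 0.4 by edgeR). LTBP1 groups overlapped between matrices at day 4, and THBS1 groups did too.

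The summed level of the 8 stellate cell markers differed between the days, from 2477 to 3239 CPM in the day 2 libraries to 4756 to 7108 CPM in the day 4 libraries, most of it VIM. Summed markers of hepatocytes were 4.41 to 10.5 CPM and those of endothelium 2.09 to 4.96 CPM. Most of the hepatocyte sum was SERPINA1, at 4.37 to 10.3 CPM, while ALB had no more than 8 counts in any library. Leukocyte markers summed to 91.6 to 127 CPM, nearly all CD68, and PTPRC, the defining marker, was at 0.503 to 2.89 CPM. Cholangiocyte markers summed to 32.2 to 37 CPM at day 2 and 50.7 to 71.2 CPM at day 4. SOX9, also a stellate cell gene, made up the larger part of this sum. KRT7 was at 9.38 to 19.1 CPM, KRT19 at 2 to 15 counts and EPCAM at no more than 6 counts. The part of these shifts in the changes of the components was not tested.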

How the data were processed

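RNA-seq of the LX-2 hepatic stellate cell line was analyzed in 8 libraries, 2 per condition. Per the paper's methods and the submitters' processing notes, the authors trimmed reads with Trim Galore, mapped them to hg19 with STAR (version 2.7.1a) and deposited raw read counts per gene from HTSeq. The annotation and strand setting are not given in the sources used here. The authors also deposited FPKM values. The ratio of count to FPKM gave a whole gene length for each of the 20029 genes with reads (within 0.01 base), so the deposited FPKM are the same counts scaled by one factor per library. Totals ran from 19955975 to 27263935 counts per library. Counts per library were at least 2343 for TGFB1 and 13 to 31 for TGFB3, the least precise of the 10.

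Counts were fitted with edgeR (version 4.0.16) in R (version 4.3.3): TMM scaling, filterByExpr by condition, 14570 genes, the 4 conditions as groups without a block, and quasi-likelihood tests adjusted by Benjamini-Hochberg over all genes tested, called at 0.05. Contrasts were day 4 against day 2 on each matrix, stiff against soft at each day and over both days, and the change between days. CPM are TMM-normalized, and log2 fold changes are edgeR's. Alternatives were DESeq2 (version 1.42.0), limma (version 3.58.1) on log2(FPKM + 1) or log2(FPKM + 0.1), other scaling and filters, separate fits, a replicate block, unadjusted p-values, leaving out each library, and 2 added after seeing the data, a crossed block and offsets by gene length (a spline with 5 degrees of freedom). The scripts were tested on simulated data. The components and gene lists were chosen with earlier results of these data known. Named pathway genes were those called in a contrast, up to 20 by size, plus LTBP1, THBS1, CTGF, SKIL, PMEPA1 and 1 gene that is not reported here. Further called genes were named after their values were seen. The 3 genes most like the component of widest range were named by Pearson r. Positions are from GENCODE on GRCh37 and promoters from RefSeq.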

Additional observations from a re-analysis of the deposited data

Results flagged for a closer look

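The effect of stiffness on SMAD7 had opposite signs at the 2 days. Both stiff libraries were above both soft libraries at day 2 (log2 difference 0.42) and below them at day 4 (-0.51), a change of -0.92. The test of the change had an unadjusted p of 0.00143 and did not pass after Benjamini-Hochberg adjustment over all genes (adjusted p = 1 by edgeR).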

How the results depend on the processing

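Counts of the 10 components that passed, and of the 65 pathway genes, moved with single choices, and the share of all genes that passed moved in the same settings. The cause was not tested. Components over time on soft matrix were 5, against 3 without scaling factors (2 higher, 1 lower, with 24.5% of all genes). They were 3 with the replicate block (18% of all genes against 27.4%), and the count moved when single libraries were left out. On stiff matrix they were 4, against 2 without scaling factors (1 higher, 1 lower, with 24.8% of all genes). They were 2 with the replicate block (17.5% of all genes against 27.6%). A separate fit of the 4 libraries compared gave 0 (0% of the 14069 genes it tested). The count on stiff matrix also moved when single libraries were left out. Without scaling factors the median log2 fold change of all genes on stiff matrix was -0.10 against 0.03. Stiff against soft gave 0 components at day 2, against 2 in a separate fit (SMAD7 higher, SMAD3 lower, with 4.67% of all genes passing), 1 at an unadjusted p and 0 with any library left out. At day 4, for the mean and for the change, 0 became 3, 2 and 1 at an unadjusted p, and 0 to 7, 0 to 3 and 0 to 3 with single libraries left out.

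Pathway genes over time on soft matrix were 21, against 35 at an unadjusted p, 40 in a separate fit (50.7% of all genes), 11 with the replicate block (18%), 12 by limma without a filter (10.9%), 39 with offsets by gene length (42.2%) and 1 to 44 with single libraries left out. On stiff matrix 25 became 0 in a separate fit, which called 0% of all genes, and 3 to 40 with libraries left out. For stiffness at day 2, 0 became 6 at an unadjusted p (2.82% of all genes) and 13 in a separate fit (4.67%). The count was 1 by limma without a filter (0.307%), and it moved when single libraries were left out. At day 4, 2 became 25 at an unadjusted p (6.93% of all genes) and 1 without scaling (0.213%). The count was 0 in a separate fit (0%), with the replicate block (0.0961%) or by limma without a filter (0.15%). DESeq2 gave 5 (0.646%) and length offsets 8 (0.686%), and the count moved when single libraries were left out. For the mean, 1 became 23 at an unadjusted p, 0 with the replicate block, 8 by DESeq2, 3 by limma without a filter, 12 with length offsets and 0 to 28 with libraries left out. For the change, 0 became 6 at an unadjusted p, 1 by limma without a filter and 0 to 19 with libraries left out.

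The replicate numbers were not shown to pair samples: deviations of same-numbered libraries correlated at -0.0358 and -0.49 between matrices at day 2 and day 4, and at 0.0773 and 0.0246 between days. With the numbers of the stiff day 4 libraries crossed in the block, 4 pathway genes passed at day 4 (0.426% of all genes). For the mean, 4 passed in that setting (0.618%). TGFB2 passed over time in 12 of 12 settings on soft and 11 of 12 on stiff matrix, and in 8 of 8 fits without 1 library on each. Of 1168 values recomputed for 60 log2 differences, 60 changed sign, 0 of them with an adjusted p under 0.05 in either fit, TGFBR3 at day 4 (-0.26, and -0.68 to 0.067 with single libraries left out) among them. For TGFB3, 13 to 31 counts limit what could be detected.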

Other observations

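The 3 genes whose log2 CPM followed TGFB2 most closely over the 8 libraries were TMEM194B (Pearson r = 0.998), GFRA1 (r = 0.997) and CBX1 (r = 0.996). GFRA1 is the co-receptor for glial cell line-derived neurotrophic factor and CBX1 a heterochromatin protein. From day 2 to day 4 GFRA1 had log2 differences of 2.75 on soft and 2.93 on stiff matrix, and TMEM194B and CBX1 had differences of 0.61 to 1.01. The 8 libraries form a day 2 and a day 4 set, and 634 genes had an r over 0.95 with TGFB2, so the likeness is a description of genes that differ between the days.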
